A study of Mus musculus with 14 samples.

Results

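Ribosomal protein genes encode the proteins that, with ribosomal RNA, form the large and the small subunit of the cytosolic ribosome. A set of 75 such genes was followed while cultured mouse neural stem cells (NSC) differentiated with or without opioid drugs. The members are the protein-coding genes whose symbol follows the family's naming pattern for large subunit (Rpl, Rplp) or small subunit (Rps) proteins, with at least 140 estimated counts summed over 14 libraries. The pattern matched 81 of the 29713 genes in the files, and 79 of these were protein-coding. The 75 members hold 46 genes of the large subunit and 29 of the small subunit. Left out for low counts were Rps27, Rpl10l and Rpl39l, each listed at 0, and Rpl3l, with 5 counts. Rps4l with 16 and Rpl6l with 10.5 counts are annotated as pseudogenes. The member with the fewest counts, Rps27l, had 8735 in all, so no member lay near the minimum, and all 75 passed the filter on low counts in every comparison.

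The cells are of the OG2 mouse strain, which carries a reporter of the pluripotency gene Pou5f1, and the sources used here give no age, sex, drug dose or exposure time. The main set is 12 libraries at passage 8. It holds 4 stages (undifferentiated culture, then differentiation for 2, 4 or 8 days) under each of 3 treatments. These were naloxone, which blocks opioid receptors, Damgo, a peptide that activates the mu opioid receptor, and NC, the labels' name for the control. A further 2 libraries are undifferentiated reference cultures without a named treatment, at passage 8 and passage 13. Each condition is 1 library, so no condition was replicated, and p-values measure the spread among these libraries after the effects of stage and treatment. A mean ± SD of a stage below is over its 3 libraries, 1 per treatment.

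Cells make all these proteins in near-equal numbers for each ribosome, and dividing cells spend a large part of their mRNA on them. Many of their mRNAs begin with a C followed by a run of pyrimidines, the 5′ terminal oligopyrimidine (TOP) motif, through which the kinase complex mTORC1 and the binding protein Larp1 are known to set their translation together. Translation is not measured by RNA-seq, so the values below are mRNA levels only.

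The start of the gene is the feature that members are known for, so start windows of members named below are shown first. RefSeq promoters of build GRCm38.p6 were found for 55 of the 75 members. Each window runs 5′ to 3′ on the gene's strand from 15 bases before the annotated start to 15 bases from it. Capitals mark the pyrimidine run, a C followed by at least 4 bases that are C or T, where it begins within 5 bases of the start. A run was taken to begin after a base that is no pyrimidine, or at the start base. These have a run at the start base itself:
Rps6, chr4:86857353-86857382, minus strand: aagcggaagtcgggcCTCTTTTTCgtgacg
Rpl38, chr11:114668565-114668594, plus strand: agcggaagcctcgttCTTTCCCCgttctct
Rpl28, chr7:4792950-4792979, plus strand: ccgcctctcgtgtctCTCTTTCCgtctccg
Rpl35, chr2:39005117-39005146, minus strand: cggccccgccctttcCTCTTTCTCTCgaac
Rpl15, chr14:18270972-18271001, minus strand: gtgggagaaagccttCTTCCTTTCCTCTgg
Rps18, chr17:33955651-33955680, minus strand: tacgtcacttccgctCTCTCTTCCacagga
In the windows of Rps27l and Rps2 the run lies 1 and 4 bases after the start:
Rps27l, chr9:66946071-66946100, plus strand: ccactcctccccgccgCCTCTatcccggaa
Rps2, chr17:24720048-24720077, plus strand: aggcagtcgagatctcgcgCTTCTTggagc
In those of Rplp0, Rpl4, Rpl5 and Rpl41 no run begins that close to the annotated start:
Rplp0, chr5:115559452-115559481, plus strand: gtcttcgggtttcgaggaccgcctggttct
Rpl4, chr9:64173372-64173401, plus strand: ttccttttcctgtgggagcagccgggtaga
Rpl5, chr5:107900513-107900542, plus strand: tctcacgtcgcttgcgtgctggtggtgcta
Rpl41, chr10:128549154-128549183, minus strand: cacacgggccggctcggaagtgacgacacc

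The run was found within 5 bases of the start in 22 of the 55 members, in 1797 of 10165 other tested genes with a promoter (17.7%) and in 13.4% of all 32851 promoter windows. A gene with several windows counted once, where any of them held the run. Exactly at the start base it was found in 12 members (21.8%), 293 other tested genes (2.9%) and 2.5% of all windows. In the whole 300-base window, searched on both strands, CCGGAAG was found in 41.8% of members, 19.7% of other tested genes and 8.9% of all windows. GGGCGG, the core of a GC box, was found in 61.8%, 70.3% and 35.7%, in that order. AAGATGGC was found in 7.3%, 5.2% and 2.7%, and TATAAA in 10.9%, 8.1% and 13.6%. A match describes the letters of the annotated window and shows no use of the site. A miss likewise depends on where the start is annotated and does not show that the mRNA lacks a TOP motif.

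Some facts of the libraries bear on what follows. Depth was 4143030 to 9070533 estimated counts a library, and 3 counts equalled 0.354 to 0.692 CPM (counts relative to the TMM-scaled library total), far under every member. The mean fragment length was taken from the deposited gene and effective lengths. In the drug experiment it was 176 to 184 bases undifferentiated and 159 to 173 bases at day 2, day 4 and day 8. In the undifferentiated reference libraries it was 174 bases at passage 8 and 165 at passage 13, the latter inside the range of the differentiated libraries. Among the libraries of day 2 the NC library stood apart from those of naloxone and Damgo, as described below. Summed levels of the fixed cell type markers changed with stage: the dividing-cell genes Mki67 and Top2a from 2294 to 2431 CPM in undifferentiated libraries to 5.20 to 8.06 at day 8, and the 5 astrocyte genes from 939 to 962 to 12658 to 13848 CPM. The 4 stem and progenitor genes summed to 5074 to 5290 CPM undifferentiated, 2067 to 2136 at day 4 and 7380 to 7641 at day 8. Vim carried that last rise (1311 ± 26.0 CPM at day 4, 6773 ± 95.4 at day 8). Between undifferentiated culture and day 8 Nes fell from 1800 ± 77.8 to 268 ± 41.3 CPM. Over the same span Sox2 went from 328 ± 17.9 to 416 ± 9.77 and Pax6 from 33.8 ± 2.23 to 72.0 ± 3.72. The 3 neuron genes summed highest at day 4, at 441 to 469 CPM. Dcx carried that peak (334 ± 11.6, and 80.3 ± 20.2 at day 8). Tubb3 (108 ± 1.99 and 106 ± 9.24) and Rbfox3 (12.8 ± 2.08 and 12.7 ± 1.59) were level between those days. The 5 oligodendrocyte lineage genes also summed highest at day 4, at 1434 to 1459. Of these, Olig2 was highest at day 2 (941 ± 76.2) and Mbp at day 8 (56.8 ± 0.579). Among the astrocyte genes Aldh1l1 was highest at day 2 (174 ± 20.7, and 80.7 ± 3.21 at day 8). The 5 microglia genes summed to at most 1.61 CPM in any stage, with 3 of them at 0 at day 8. The 4 mesenchyme and pericyte genes summed to 2.22 to 7.19 CPM undifferentiated and to 123 to 150 at day 8. That day 8 sum was mostly Pdgfrb (97.8 ± 10.0) and Acta2 (33.5 ± 6.64). Col1a1 (0.809 ± 0.640) and Col1a2 (0.680 ± 0.890) were near the floor there. The 3 endothelium genes summed to at most 24.3 CPM, nearly all of it Kdr, with Cdh5 at 0 in every library. The part of these shifts in the results was not tested. In bulk RNA a lower share of cells of one type and less RNA per cell cannot be told apart.

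Together the 75 genes supplied a large share of the transcriptome. Their share of all TPM (an abundance per transcript length that sums to the same total in every library) was 15.5%, 15.6% and 15.6% in the undifferentiated NC, naloxone and Damgo libraries. It was 15%, 16.9% and 16.8% at day 2, 11%, 11.1% and 10.9% at day 4, and 8.45%, 7.82% and 8.01% at day 8. Every day 4 library lay below every undifferentiated and day 2 library, and every day 8 library below every day 4 library. The mean was 15.6% ± 0.0577 undifferentiated, 16.2% ± 1.07 at day 2, 11% ± 0.10 at day 4 and 8.09% ± 0.323 at day 8 (SD, n = 3). Both subunits took part. The large subunit went from 8.92% to 4.78% and the small subunit from 6.62% to 3.31% between undifferentiated culture and day 8. By estimated counts, which are not divided by transcript length, the mean share of the 75 was 4.31% ± 0.0416 undifferentiated and 4.77% ± 0.541 at day 2. It was 2.80% ± 0.0361 at day 4 and 2.42% ± 0.119 at day 8. The fall from day 4 to day 8 was thus smaller by counts than by TPM.

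**Figure D1:**
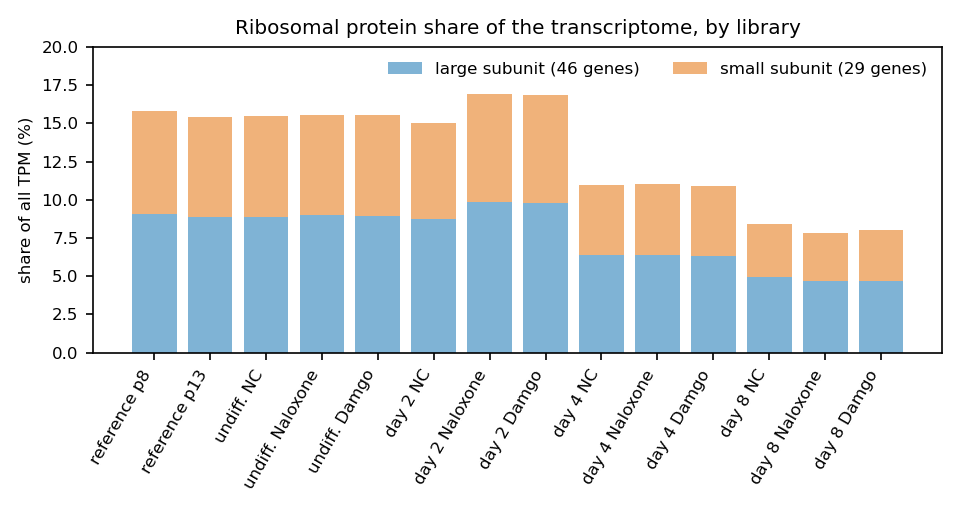
Share of all TPM (y axis, percent) held by the 46 large subunit and 29 small subunit genes in each of the 14 libraries (x axis, stacked bars from 0). The undifferentiated and reference libraries stand between 15.4% and 15.8%, those of day 4 between 10.9% and 11.1%, and those of day 8 between 7.82% and 8.45%.

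Levels differed between members, although the ribosome holds a single copy of most of these proteins. The 3 members with the highest mean TPM over the 12 libraries were Rplp1 (4468), which encodes a protein of the stalk, Rps12 (3896) and Rpl23a (3233). The 3 lowest were Rpl35 (409), Rps27l (516) and Rpl12 (594). The median TPM of the 75 was 2029 in undifferentiated libraries, 2054 at day 2, 1371 at day 4 and 1030 at day 8. The order of the members by TPM shifted little: Spearman's rho with the undifferentiated order was 0.94 at day 2, 0.94 at day 4 and 0.89 at day 8, over 75 genes that share the libraries. Rps12 led in undifferentiated cells with 5314 ± 223 TPM, beside 5221 ± 256 for Rplp1, which lies within their spread. At day 8 Rps12 stood at 2043 ± 249 TPM and Rplp1 at 3455 ± 345.

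The level of Rpl35 depends on how reads were divided with a near-identical copy. Its transcript matches that of Gm2000 at 99.6% identity, and Gm2000 received 55.5% of the counts of the pair. The same held to a lesser degree for Rpl15 with Gm10020 (30.9%), Rps18 with Gm10260 (27.8%), Rpl29 with Gm10709 (17.5%) and Rplp0 with Gm8730 (15.8%). Every other copy found took at most 2.23% of its pair. For Rps27, which encodes a small subunit protein and is listed at 0 in all 14 libraries, a transcript of Rps27rt matches over 341 bases without a mismatch. Rps27rt, singled out after its values were seen, had 338 ± 15.7 CPM in undifferentiated libraries, 497 ± 68.1 at day 2, 253 ± 23.2 at day 4 and 232 ± 12.7 at day 8.

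At day 2 of differentiation most ribosomal protein genes were near their undifferentiated level. By edgeR's quasi-likelihood test 20 of 75 rose and 4 fell, where 69.0% of the 13413 genes tested were called, 33.4% higher and 35.6% lower. The median change was 0.15 on the log2 scale, with a range of −1.12 to 0.57, against −0.01 over all genes. The 12 that rose in the large subunit and the 8 in the small subunit came with 1 and 3 that fell.

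Rpl22, a large subunit protein that binds viral and cellular RNA and has a paralog in Rpl22l1, rose most on TMM-scaled counts. It stood at 312, 329 and 315 CPM in the undifferentiated NC, naloxone and Damgo libraries and at 417, 509 and 499 at day 2, with no overlap. The change was 0.57 ± 0.07 (SE of the log2 change, adjusted p = 7.49e-05, edgeR). In TPM the 2 stages of Rpl22 overlapped, at 1431 ± 45.8 undifferentiated and 1449 ± 65.9 at day 2. Rps9, a protein of the small subunit body, went from 620 ± 27.4 to 907 ± 90.2 CPM (0.54 ± 0.09). Rps14, a protein of the small subunit platform, rose by 0.50 ± 0.09 and Rps21 by 0.49 ± 0.11. The rise was then lost: Rpl22 had 272 ± 7.78 CPM at day 4 and 254 ± 9.74 at day 8.

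The 4 members that fell at day 2 were Rps27l, Rps2, Rps25 and Rpl12. Rps27l is a paralog of Rps27 and a known target of p53. Its level was 175, 163 and 158 CPM undifferentiated and 65.9, 83.1 and 80.5 CPM at day 2, groups that lie far apart. The fall was −1.12 ± 0.10 (adjusted p = 4.48e-06, edgeR). Rps2, at the mRNA entry of the small subunit, fell by 0.32 ± 0.07, from 1207 ± 53.4 to 974 ± 91.7 CPM. Rps25, used by some viral internal ribosome entry sites, and Rpl12, at the base of the stalk, each changed by −0.25 ± 0.08. Without the NC library of day 2 the test called 55 members higher and 2 lower, beside 4805 and 4772 of 13367 genes. Without the Damgo library of day 2 it called 8 and 4, beside 4079 and 4234 of 13390 genes. With a trend on GC content and gene length removed across all libraries it called 13 members higher and 37 lower, with a median of −0.17. Of all 13413 genes, 4654 were then higher and 4646 lower. The direction of the members at day 2 was thus not stable to that step. With the trend removed only within stages the test called 35 members higher and 6 lower, beside 4645 and 5046 of all genes.

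Between day 2 and day 4 every member fell. All 75 members passed edgeR's test as lower, where 51.3% of all genes tested were called, 26.8% higher and 24.5% lower, and the median change was −0.81 against 0.01 over all genes. The changes were close together, from −1.14 to −0.43. The medians of the large and the small subunit were −0.81 and −0.82. The largest fall was that of Rpl28, at 343, 413 and 393 CPM at day 2 and 175, 177 and 167 at day 4, with no overlap (−1.14 ± 0.08, adjusted p = 2.92e-06, edgeR). Next came Rpl23a, which lies at the exit of the peptide tunnel (−1.13 ± 0.09), Rpl18 (−1.03 ± 0.10) and Rpl11 (−1.02 ± 0.11). The smallest falls were those of Rpl15 (−0.43 ± 0.07), Rpl23 (−0.51 ± 0.13), Rpl7 (−0.57 ± 0.13) and Rps15a (−0.58 ± 0.11). The count stayed at 75 without any 1 of the 12 libraries.

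Against undifferentiated cells 74 of 75 members were lower at day 4, where 61.8% of all genes were called, 31.1% higher and 30.7% lower, with a median change of −0.66 against a median of 0.00 over all genes. The 1 member that did not pass was Rps21, at 228, 233 and 256 CPM undifferentiated and 199, 219 and 194 at day 4 (−0.23 ± 0.11, adjusted p = 0.0946, edgeR). Rps27l fell most, from 165 ± 8.60 to 43.3 ± 2.68 CPM (−1.94 ± 0.11). Rpl12 (−1.07 ± 0.08), Rps25 (−1.03 ± 0.08) and Rps19 (−1.03 ± 0.09), a small subunit protein mutated in Diamond-Blackfan anaemia, followed. Rpl22 (−0.23 ± 0.08), Rps14 (−0.25 ± 0.09) and Rpl15 (−0.32 ± 0.07) had the smallest falls that passed. In TPM Rpl22 went further down, from 1431 ± 45.8 to 817 ± 77.9.

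By day 8, 71 of 75 members were lower than in undifferentiated cells, and none was higher, where 79.8% of all genes were called, 41.5% higher and 38.3% lower. The median change was −0.71 against 0.05 over all genes, −0.65 in the large and −0.77 in the small subunit. Rpl4, a protein that lines the peptide exit tunnel, stood at 1407, 1383 and 1380 CPM undifferentiated and at 607, 498 and 669 at day 8. Its change was −1.24 ± 0.09 (adjusted p = 7.02e-07, edgeR). Rpl23 went from 619 ± 15.4 to 264 ± 55.3 CPM (−1.24 ± 0.13). Rpl5, which with Rpl11 carries the smallest RNA of the large subunit and binds Mdm2 when ribosome assembly fails, fell by 1.22 ± 0.14 and Rpl36a by 1.22 ± 0.11. Rpl11 had 471 ± 19.5 CPM undifferentiated and 334 ± 10.8 at day 8 (−0.50 ± 0.10). Rps6, the small subunit protein phosphorylated by S6 kinase, was nearly constant in undifferentiated cells at 889, 887 and 890 CPM, and stood at 448, 393 and 420 at day 8 (−1.08 ± 0.08).

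Among the 4 members that did not pass at day 8, Rpl38 and Rpl41 had means close to the undifferentiated ones. Rpl41 encodes the shortest protein of the ribosome. Its libraries had 533, 548 and 591 CPM undifferentiated and 579, 560 and 525 at day 8, which overlap, a change of −0.01 ± 0.09 (adjusted p = 0.915, edgeR). Rpl38, needed for translation of some Hox mRNAs in the embryo, had 187 ± 9.47 and 187 ± 8.39 CPM (SE 0.09, adjusted p = 0.985, edgeR). Rplp2 (−0.25 ± 0.11, adjusted p = 0.0534) and Rps21 (−0.21 ± 0.11, adjusted p = 0.108) are the others by edgeR's test. By limma on log2(TPM + 1) all 75 were lower at day 8, by a median of −0.96, and there the median over all genes was itself −0.158. Of all 13413 genes, that test called 5780 lower and 4483 higher.

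**Figure D2:**
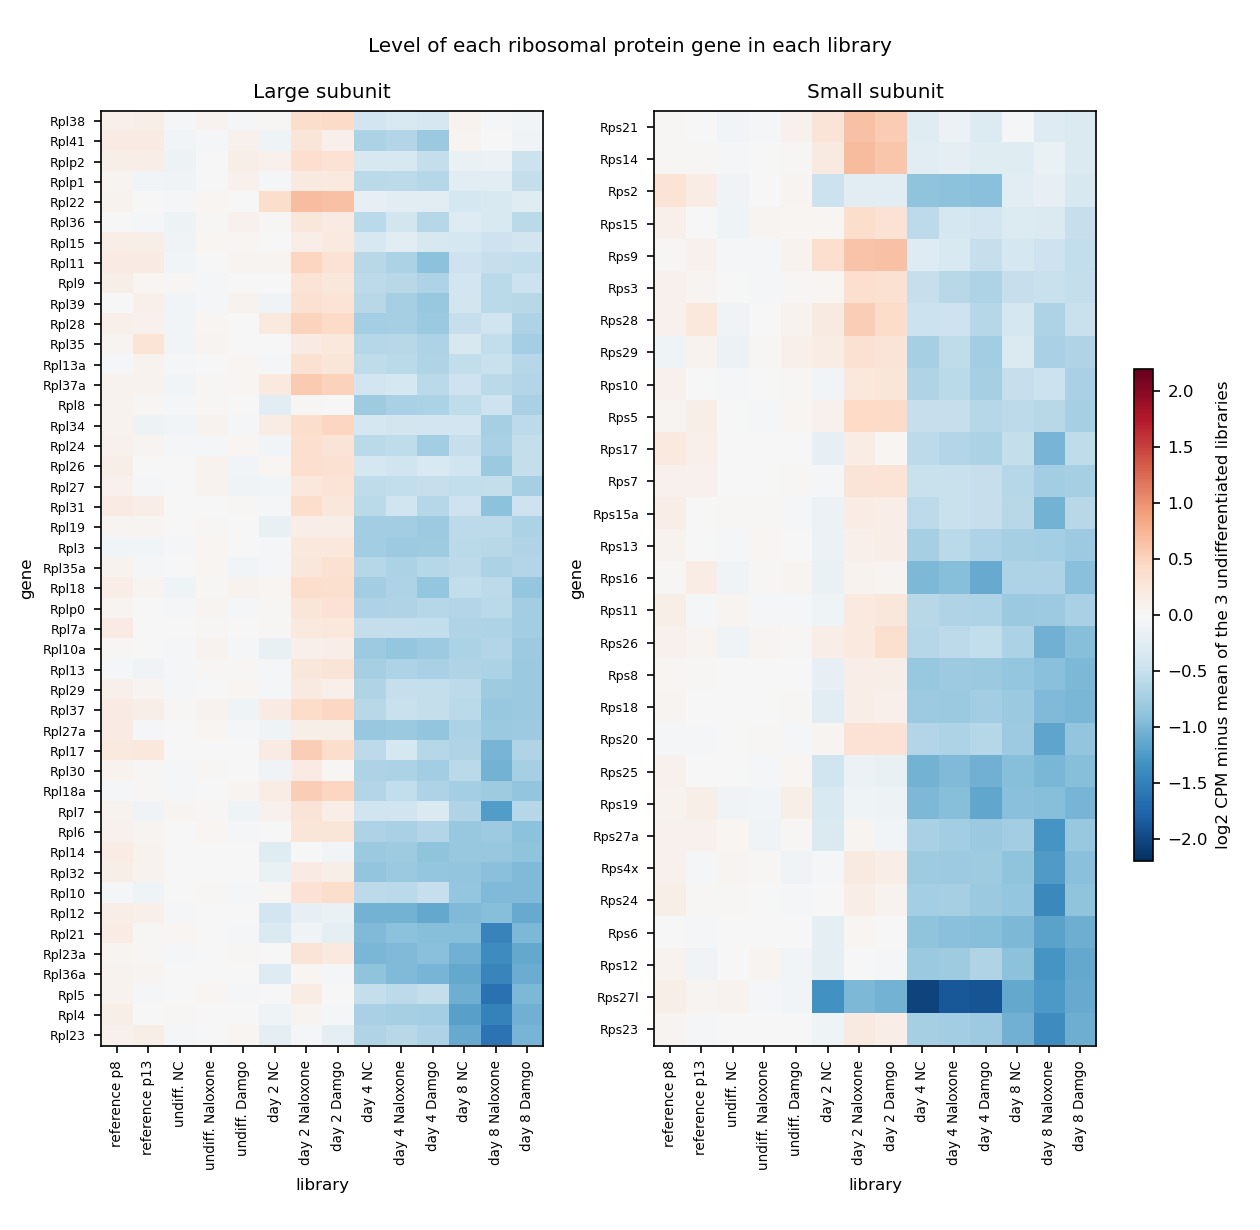
Level of each member (rows, large subunit left and small subunit right, sorted by the day 8 level) in each library (columns) as log2 CPM minus the mean of the 3 undifferentiated libraries. Red is higher and blue lower. The columns of day 4 and day 8 are blue for nearly all members, and Rps27l, Rps2, Rpl12 and Rps25 are blue already at day 2.

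Between day 4 and day 8 most of the family was not called on TMM-scaled counts. By edgeR's test 7 members rose, 11 fell and 57 did not pass, where 67.9% of all genes were called, 36.7% higher and 31.1% lower, with a median change of −0.05 against 0.07 over all genes. Those that rose were Rps27l, Rpl41, Rps2, Rpl38, Rplp1, Rps16 and Rpl28. Rps2 had 651, 648 and 636 CPM at day 4 and 1024, 1066 and 946 at day 8, with no overlap (0.65 ± 0.07, adjusted p = 3.68e-05, edgeR). Rpl41 went from 339 ± 22.0 to 554 ± 27.4 CPM (0.71 ± 0.09) and Rps27l from 43.3 ± 2.68 to 73.6 ± 4.32 (0.77 ± 0.11). Rpl38 rose by 0.38 ± 0.09, Rplp1 by 0.28 ± 0.09, Rps16 by 0.25 ± 0.08 and Rpl28 by 0.23 ± 0.08.

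The 11 that fell again after day 4 were Rpl5, Rpl23, Rpl4, Rpl7, Rps23, Rpl10, Rps12, Rps26, Rps20, Rps7 and Rpl7a. Rpl5 stood at 705, 678 and 702 CPM at day 4 and 479, 322 and 511 at day 8, where the naloxone library was the lowest (−0.68 ± 0.14, adjusted p = 0.00133, edgeR). Rpl23 fell by 0.59 ± 0.13, Rpl4 by 0.50 ± 0.09 and Rpl7 by 0.43 ± 0.13. This comparison depended on the scale. By limma on log2(TPM + 1) 3 members were higher and 65 lower, beside 2571 higher and 6153 lower of 13413 genes. The median of the members was −0.45 where that of all genes was −0.29, and the changes of Rpl28, Rpl38 and Rplp1 turned negative. With a GC and length trend removed across libraries 1 member was higher and 74 were lower, beside 4051 and 4418 of all genes. The changes of Rps2 and Rpl41 then turned negative as well.

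**Figure D3:**
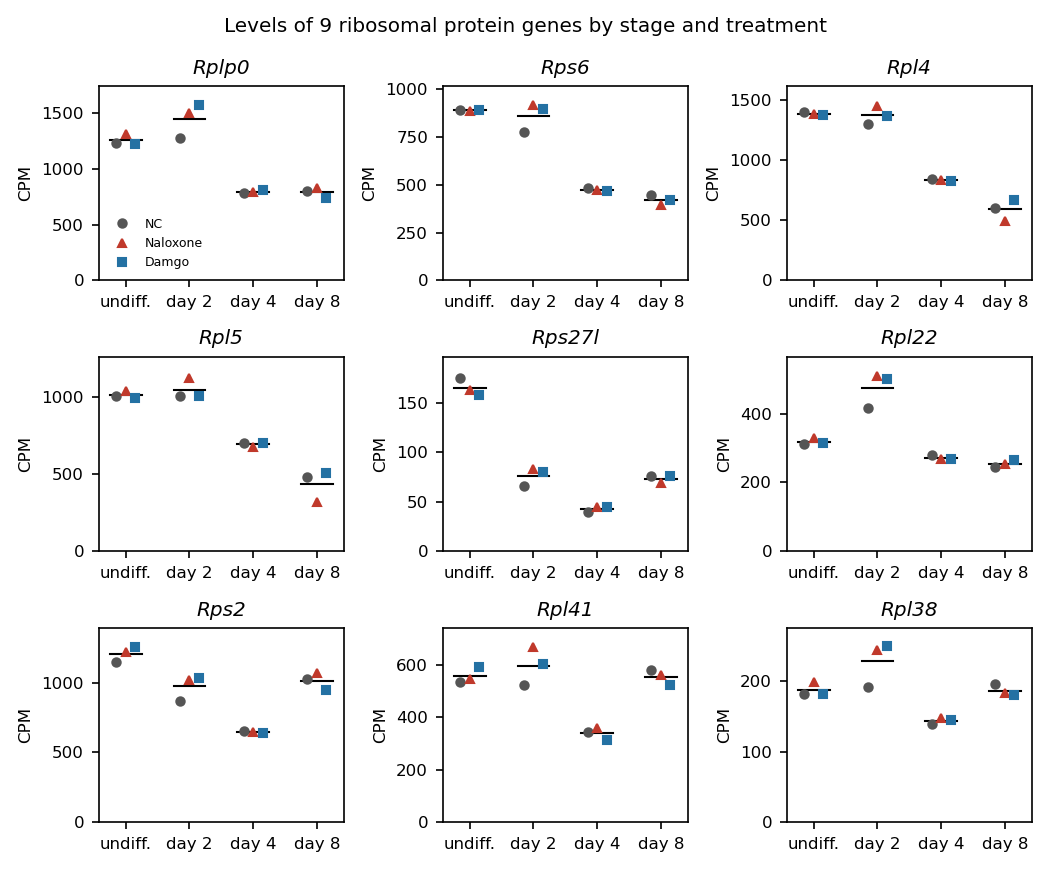
CPM (y axis from 0) of 9 members in the 4 stages (x axis), with 1 point for each NC, naloxone and Damgo library and a line at their mean. Rplp0, Rps6, Rpl4 and Rpl5 fell to day 8, Rpl22 peaked at day 2, and Rps27l, Rps2, Rpl41 and Rpl38 were lowest at day 4.

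Read across the stages, the most common pattern, in 38 members, was no call at day 2, a fall from day 2 to day 4, no call from day 4 to day 8, and a level at day 8 below the undifferentiated one. In 15 members the pattern differed from this only by a rise at day 2, out of the 20 members that rose then. In 9 it differed only by a further fall from day 4 to day 8. Rps27l and Rps2 were the 2 members that fell at day 2, fell again to day 4 and then rose. The share of all genes with each pattern was not counted, so these counts have nothing to be read against.

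The stalk of the large subunit recruits the elongation factors and is built on Rplp0, with Rplp1 and Rplp2 as its arms and Rpl12 at its base. Rplp0 had 1233, 1315 and 1219 CPM undifferentiated, 1276, 1503 and 1570 at day 2, 783, 792 and 808 at day 4, and 800, 830 and 735 at day 8. It thus passed as higher at day 2 (0.20 ± 0.08, adjusted p = 0.0419, edgeR) with the day 2 NC library inside the undifferentiated range, and was lower in each library of day 4 and day 8. Rplp1 fell from 865 ± 51.5 to 692 ± 79.0 CPM at day 8 (−0.32 ± 0.09). Rplp2 had 360 ± 30.3 and 304 ± 38.6 CPM and did not pass. Rpl12 fell from 452, 463 and 461 CPM to 233, 240 and 213 (−1.01 ± 0.08). The difference between Rpl12 and the 2 arms was not tested.

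At the exit of the peptide tunnel, Rpl19, Rpl31 and Rpl39 had 752 ± 9.32, 468 ± 5.71 and 408 ± 21.3 CPM undifferentiated and 491 ± 24.4, 311 ± 52.4 and 281 ± 22.2 at day 8. Their changes were −0.62 ± 0.08, −0.59 ± 0.13 and −0.54 ± 0.12. In the small subunit, Rps3, at the mRNA entry, rose at day 2 (0.24 ± 0.09) and fell to day 8 (−0.51 ± 0.09), and Rps19 went from 494 ± 42.0 to 254 ± 9.22 CPM (−0.96 ± 0.09). Rps27a, made as a fusion with ubiquitin, went from 586 ± 24.2 to 303 ± 56.8 CPM (−0.96 ± 0.13). Among members with a paralog, Rpl3 fell by 0.63 ± 0.07, Rpl10 by 0.93 ± 0.09 and Rps4x by 1.01 ± 0.10 by day 8, all past edgeR's threshold.

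The change to day 8 varied among members with base composition. Over the 75 genes the log2 change correlated with the GC content of their transcripts at r = 0.50, and over 11102 other genes of at least 5 CPM at r = 0.37, across genes that share the libraries. For day 8 against day 4 the values were 0.38 and 0.50, and for day 4 against day 2 they were 0.02 and −0.40. Members had a median GC content of 52.0% and a median length of 674 bases, other genes 50.5% and 2762 bases. The part of GC content and length in the results was not tested beyond the fits with the trend removed.

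Other genes of translation came from fixed lists. Of the 7 ribosomal proteins whose symbols fall outside the naming pattern, 0 were higher and 3 lower at day 2 by edgeR's test, with a median of 0.05. At day 8, 0 were higher and 6 lower, with a median of −0.87. Of all genes 33.4% were higher and 35.6% lower at day 2, and 41.5% and 38.3% at day 8. From day 2 to day 4, Fau, a fusion of a small subunit protein with a ubiquitin-like one (−0.31, adjusted p = 0.257, edgeR), and Rpl22l1 (−0.08, adjusted p = 0.713, edgeR) did not pass. Rpsa, a small subunit protein also known as a laminin receptor, went from 1623 ± 68.2 to 768 ± 67.0 CPM (−1.08 ± 0.08), and Rpl36al fell by 1.21 ± 0.13. Of 18 elongation factors and other genes known for a TOP start, 9 were higher and 4 lower at day 2. There 33.4% of all genes were higher and 35.6% lower. At day 8, 2 of the 18 were higher and 14 lower, where 41.5% of all genes were higher and 38.3% lower. Eef2, the translocation factor, had 2817 ± 140 CPM undifferentiated, 4805 ± 502 by day 2 and 2315 ± 44.5 by day 4. The 2 largest changes of that list at day 8 were in Npm1 (−2.87 ± 0.24), a nucleolar chaperone, and Hnrnpa1 (−2.29 ± 0.15), an RNA binding protein.

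Genes that make the ribosome's RNA were mostly lower at day 2. Of 20 genes of RNA polymerase I and rRNA processing, 14 fell and 1 rose at day 2, with a median of −0.81. Of all genes 35.6% fell and 33.4% rose there. From day 2 to day 4, 7 of the 20 rose and 2 fell, where 26.8% of all genes rose and 24.5% fell. Nop58, of the machinery that methylates rRNA, had 170 ± 9.94 CPM undifferentiated, 25.1 ± 16.7 by day 2, 76.9 ± 1.79 by day 4 and 14.4 ± 4.40 by day 8. Dkc1, which makes pseudouridine in rRNA, fell by 2.77 ± 0.25 at day 2. All 4 snoRNA host genes tested, of 6 listed, fell at day 2, day 4 and day 8, with medians of −0.65, −0.64 and −1.24. Of all genes 35.6%, 30.7% and 38.3% fell, in that order. By day 8 the largest falls among the host genes were those of Snhg6 (−1.44 ± 0.14) and Snhg5 (−1.42 ± 0.12). Of 16 cap binding and mTORC1 genes 5 were higher and 8 lower at day 8, beside 41.5% higher and 38.3% lower of all genes. Eif4ebp1, an inhibitor of cap-dependent translation, went from 40.3 ± 0.318 to 5.10 ± 1.12 CPM at day 2 (−3.00 ± 0.20). With Larp4 (−3.00 ± 0.39) it had the largest change of its list there.

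Ribosomal proteins of mitochondria were the last list. Of 74 tested, 17 fell and 12 rose at day 2, where 35.6% of all genes fell and 33.4% rose. At day 4, 43 fell and 3 rose, where 30.7% of all genes fell and 31.1% rose. By day 8, 32 were higher and 13 lower than in undifferentiated cells, with a median of 0.19. The share that was higher lies near the 41.5% of all genes, of which 38.3% were lower. Mrps6 rose by 2.66 ± 0.09 to day 8, while Mrpl50 fell by 1.14 ± 0.16. From day 4 to day 8, 60 of the 74 rose and 3 fell, where 36.7% of all genes rose and 31.1% fell. The difference between the mitochondrial and cytosolic lists was not tested.

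**Figure D4:**
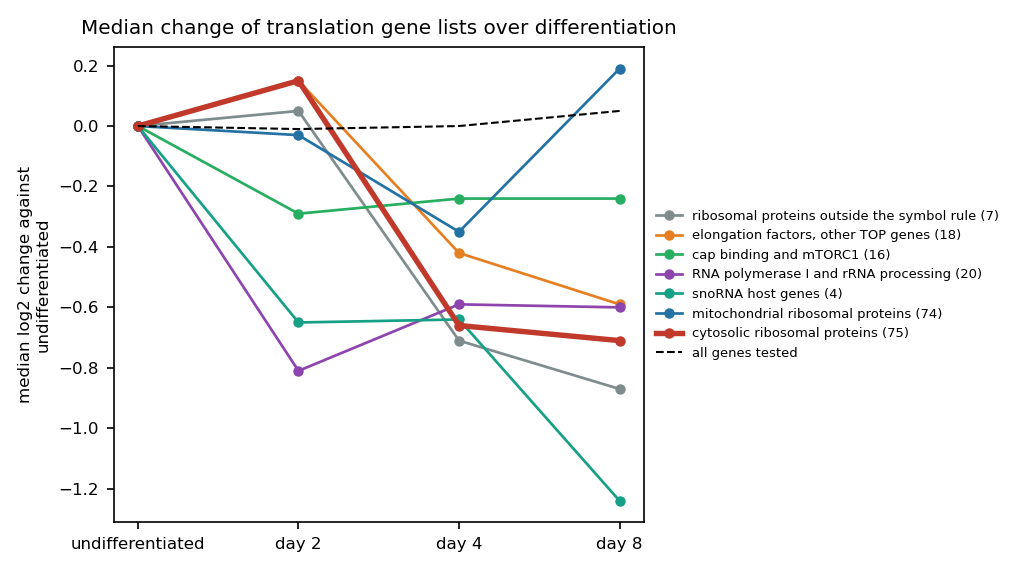
Median log2 change against undifferentiated cells (y axis) of the members and 6 lists of other translation genes, with the number of genes tested in brackets, at day 2, day 4 and day 8 (x axis, stages not to scale in time). The dashed line is the median of all genes tested. The cytosolic members stand at 0.15, −0.66 and −0.71, the mitochondrial ribosomal proteins at −0.03, −0.35 and 0.19.

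The drugs were compared over all 4 stages. No member passed edgeR's test for naloxone against NC, Damgo against NC or naloxone against Damgo, and neither did any other gene (0% called in each). At an unadjusted p under 0.05 there were 1344, 325 and 245 genes, among them 1, 0 and 0 members. No member was called by limma-voom, by DESeq2 or by limma on TPM values either. The medians of the members were 0.05, 0.03 and 0.02. For naloxone the smallest p-values were those of Rps15 (0.16 ± 0.07), Rps14 (0.16 ± 0.08) and Rpl8 (0.13 ± 0.07), with an adjusted p of at least 0.473. For Damgo they were those of Rpl15 (0.08 ± 0.06), Rps15 (0.09 ± 0.07) and Rps13 (0.08 ± 0.06), with an adjusted p of 0.952, and between the drugs those of Rpl28, Rpl36 and Rps16.

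Within stages, the drug libraries of day 2 and day 8 lay farther from the NC library, in their medians, than those of the other stages. At day 2 all 75 members were higher in the naloxone than in the NC library and 73 were higher in the Damgo library. Their median log2 ratios were 0.28 and 0.26. Of 11114 other genes of at least 5 CPM, 52.7% and 51.8% were higher than in the NC library, with medians of 0.03 and 0.02. Rps14 had 530 CPM with NC, 747 with naloxone and 700 with Damgo, against 453 to 466 undifferentiated. Rps18 had 387, 508 and 494 CPM and Rpl39 387, 517 and 501, in the same order. In undifferentiated cells the medians of the members were 0.04 and 0.03, and at day 4 they were 0.02 and −0.03. At day 8 they were −0.11 and −0.10, with 59 and 66 members lower than in the NC library. Of the other genes 50.5% and 47.6% were higher than in the NC library at day 8. The lowest ratio at day 8 with naloxone was −0.58, in Rps24. At day 2 the log2 ratio of other genes correlated with GC content at r = 0.61 for naloxone and 0.58 for Damgo, that of the members at 0.03 and 0.21.

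A term for either drug at day 2 beyond the other stages, added after the day 2 NC library was seen to stand apart, had 17 members higher and 0 lower by edgeR's test, where 1.17% of 13785 genes were higher and 11.8% lower. The fitted change was positive for all 75, with a median of 0.30. Rps14 (0.42 ± 0.09, adjusted p = 0.00857), Rps18 (0.42 ± 0.10, adjusted p = 0.0138) and Rpl39 (0.49 ± 0.12, adjusted p = 0.0175) had the smallest p-values. The term rests on 1 NC library at day 2 and cannot be fitted without it. With the GC and length trend removed within stages 6 members were higher and 1 lower, with a median of −0.01. Of all 13785 genes, 591 were then higher and 620 lower. On the log2(TPM + 1) scale no member passed limma's test, beside 19 higher and 964 lower of all genes.

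**Figure D5:**
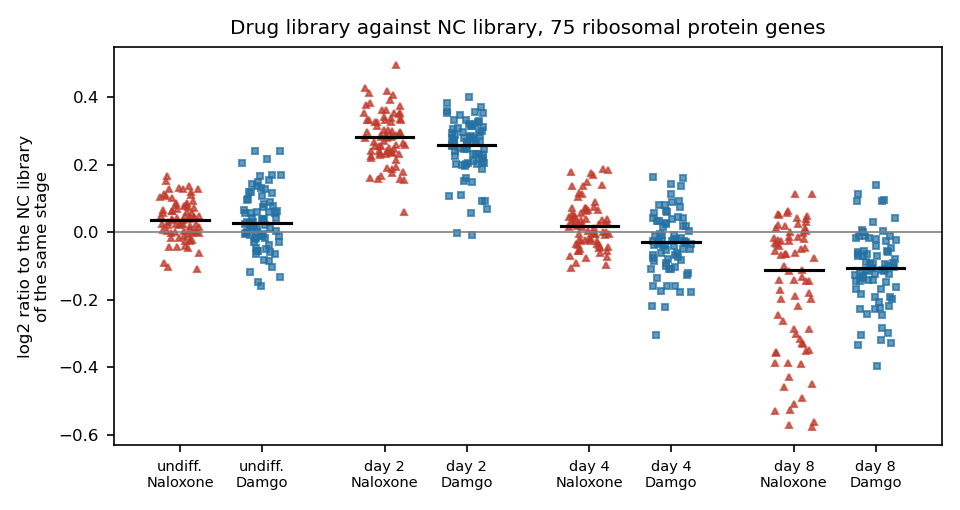
Log2 ratio of CPM in the naloxone or Damgo library to the NC library of the same stage (y axis), with 1 point for each of the 75 members and a line at the median. At day 2 the medians are 0.28 and 0.26, and in the other stages they lie between −0.11 and 0.04.

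The spread of a member over the 3 libraries of a stage was widest at day 2, in the median. The median range on the log2 scale was 0.09, 0.30, 0.09 and 0.21 from the undifferentiated stage to day 8, beside 0.17, 0.31, 0.17 and 0.26 for other genes. The widest at day 8 was that of Rpl5, at 0.66, and at day 2 that of Rps14, at 0.50.

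The reference cultures asked whether passage mattered. Between passage 13 and passage 8 no member passed edgeR's test and 3 of 13855 genes did (0.0217% called), with a median of −0.04 over the members. At an unadjusted p under 0.05 there were 645 genes and 0 members. The smallest p-values were those of Rpl27a (−0.20 ± 0.13), Rpl7a (−0.17 ± 0.12) and Rpl35 (0.25 ± 0.18). Between the passage 8 reference and the undifferentiated NC level of the drug experiment 0 members and 45 genes passed (0.325% called, 0.108% higher and 0.217% lower), with a median of 0.12. Rps2 had the smallest p, at 1492 CPM in the reference against 1150, 1216 and 1256 in the undifferentiated libraries (0.36 ± 0.11, adjusted p = 0.239, edgeR). At an unadjusted p under 0.05 there were 1627 genes and 1 member.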

How the data were processed

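Per the labels, RNA-seq libraries were prepared from total RNA with a TruSeq kit. The submitters' processing notes name Bowtie, RSEM and the build mm10, with versions not given in the sources used here. Per the file headers each library gives for 29713 genes an expected count, a TPM, an FPKM, a length and an effective length. The authors' expected counts, not whole for 10.4 to 13.1% of genes, were rounded. The deposited FPKM values were looked at and not used. GENCODE M21 gave symbols for 29202 identifiers.

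edgeR's quasi-likelihood test (TMM scaling, its filter on low counts) was fitted over all genes with stage and treatment as terms (12 libraries, 6 residual degrees of freedom, 13413 genes), and for the reference cultures over 14 libraries with a term for each (13855 genes). A model with a drug term at day 2 was added (5 residual degrees of freedom). Adjustment was by Benjamini-Hochberg over all genes, with a threshold of 0.05. The authors' TPM values were used for shares, for levels between genes and, on log2 scales with a pseudocount of 1 or 0.1, in limma. Alternatives were DESeq2 and its size factors, limma-voom, no filter, removal of a GC and length trend (mgcv, fitted on other genes), stage alone, each library left out and, added after seeing the data, near-identical copies added to their member and TMM without the members. Named genes are the 4 highest and 4 lowest changes of each stage comparison, up to 6 calls against the majority, a list by role, the 3 smallest p-values for drugs and passages, and the 3 highest and lowest levels. The fixed lists are those described, with pluripotent markers besides. The members and lists were chosen with earlier results of these data known. The code was tested on simulated data. The tools were edgeR 4.0.16, DESeq2 1.42.0, mgcv 1.9.3 and limma 3.58.1 in R 4.3.3.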

Additional observations from a re-analysis of the deposited data

Results flagged for a closer look

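The day 2 NC library differed from both drug libraries of that day in the members more than in the other stages. In the model with a term for either drug at day 2, 17 members passed edgeR's test, all higher in the drug libraries, where 12.9% of all genes were called, 1.17% higher and 11.8% lower. The term was added after that NC library was seen to stand apart and sets both drug libraries against it, so it restates that observation and is no independent test of a drug effect. With the GC and length trend removed within stages 6 members were higher and 1 lower, with a median of −0.01, by limma on log2(TPM + 1) 0 passed, and without the day 2 naloxone library 0 passed. With that trend removed 591 of all 13785 genes were higher and 620 lower, and by limma on log2(TPM + 1) 19 and 964. In the day 2 NC library the 75 genes held 15% of all TPM, against 16.9% with naloxone and 16.8% with Damgo. Mki67, a marker of dividing cells, was at 35 CPM in that library and at 13.8 and 16.9 in the other 2, and its part in the difference was not tested.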

How the results depend on the processing

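The falls to day 4 and day 8 against undifferentiated cells and from day 2 to day 4 kept their direction and their count within 1.5 times under every alternative run, and no alternative called a member for either drug over all stages, between the drugs or for the reference cultures. For day 2, 24 members were called, 50 (13 higher, 37 lower, a turn of direction) with the GC and length trend removed across libraries, 41 with it removed within stages, and 12 to 57 with 1 library left out, 57 without day 2 NC and 12 without day 2 Damgo. For day 8 against day 4, 18 were called, 68 by limma on log2(TPM + 1) and 68 on log2(TPM + 0.1), 75 and 33 with the trend removed across libraries and within stages, and 10 to 36 with 1 library left out, 36 without day 2 NC, 11 without day 4 naloxone, 10 without day 4 Damgo and 10 without day 8 naloxone. For either drug at day 2 beyond the other stages, 17 were called, 38 with DESeq2 size factors, 35 by DESeq2, 0 by limma on log2(TPM + 1), 7 with the trend removed within stages, and 0 to 48 with 1 library left out, 48 without day 8 naloxone, 0 without day 2 naloxone, 3 without day 2 Damgo, 4 without day 4 NC, 5 without day 8 NC, 7 without day 4 Damgo, 8 without undifferentiated NC and 10 without undifferentiated naloxone. In the main fits 69.0%, 67.9% and 12.9% of all genes were called for these comparisons, in the same order. Calls over all genes moved too. At day 2, 4485 genes were higher and 4775 lower in the main fit, and 4805 and 4772 without day 2 NC. Day 8 against day 4 had 4929 and 4178 in the main fit, and 4051 and 4418 with the trend removed across libraries. The day 2 drug term had 161 and 1621 in the main fit, and 472 and 1367 with DESeq2 size factors. Without day 8 naloxone it had 644 and 2280, and with the trend removed within stages 591 and 620. The cause of the shifts between settings was not tested. With the trend removed across libraries, which by construction also takes out a trend that differs between stages, the day 2 changes of Rpl11 (−0.16), Rplp0 (−0.25) and Rps21 (−0.12) and the changes from day 4 to day 8 of Rpl28 (−0.83), Rpl38 (−0.85), Rpl41 (−0.37), Rplp1 (−0.85) and Rps2 (−0.23) were reversed. On both TPM scales those of Rpl28 (−0.16), Rpl38 (−0.07) and Rplp1 (−0.15) were reversed. On the log2(TPM + 1) scale the median over all genes was 0.159 for day 4 and −0.158 for day 8 against undifferentiated, 0.205 for day 4 against day 2 and −0.29 for day 8 against day 4. Of 2162 values of 94 called results of named members, 2064 kept direction and call, 84 lost the call and 14 were reversed. Pseudogenes that carry a member's symbol followed by ps could not be added, since no quantified gene bears such a name, and Rps4l and Rpl6l, with under 20 counts each, were not added to any member. No paired analysis was possible because each condition is 1 library and the labels give no replicate numbers. The lowest member total, 8735 counts, is far over the floor of 3, and the precision that replicates would give was not measured.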

Other observations

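Genes outside the lists, chosen after the values of Rps27l were seen, had these levels. Cdkn1a, which like Rps27l is a known p53 target, stood at 211, 236 and 242 CPM in undifferentiated libraries, 21.3, 22.8 and 21.9 at day 2, 12.3, 15.5 and 14.1 at day 4, and 41.2, 42.4 and 44.1 at day 8. Mdm2, another such target, had 93.8, 99.2 and 94.2 CPM undifferentiated, 52.9, 43.4 and 46.4 at day 2, 58.1, 60.5 and 61.5 at day 4, and 42.2, 41.0 and 46.3 at day 8. Cdkn1a was lowest at day 4, as Rps27l was, and the Mdm2 libraries of day 2 and day 8 overlapped. Myc, a transcription factor known to drive ribosomal protein and rRNA genes, fell by 1.57 ± 0.07 at day 2 and rose by 0.80 ± 0.07 from day 2 to day 4 (SE of the log2 change, both past edgeR's threshold). A relation of these genes to the members was not tested.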
